A study of Mus musculus with 6 samples.

Results

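Mitochondrial biogenesis and dynamics genes are the nuclear genes whose products switch on mitochondrial genes, package and copy mitochondrial DNA, and fuse and divide mitochondria. The 10 members were chosen by symbol for these roles, and all 10 were found among the 24411 genes listed and among the 12828 genes with enough counts to be tested. Soleus (Sol), a small calf muscle rich in slow-twitch fibers, was taken from 3 WT and 3 LSD1-mKO male C57BL/6 mice after voluntary wheel running (VWR), and poly(A) RNA was sequenced with 1 library per mouse. All mice carried the Lsd1-floxed allele and received tamoxifen, and the LSD1-mKO mice also carried a CreERT2 recombinase driven by the human ACTA1 promoter, which is active in differentiating and differentiated muscle cells. WT mice had the floxed allele without CreERT2, so that CreERT2 itself was present only in the LSD1-mKO group. Mice were 8 weeks old when they were given a wheel, had 3 days to become used to it, were injected with tamoxifen at 75 mg/kg on 5 days, and had the wheel for 38 days in all. Muscle was taken after 6 h with neither wheel nor food. No sedentary mice were analysed here, so that running itself was not compared. The estimated counts per library summed to 8940206, 10366443 and 10989846 in WT replicates 1 to 3, and to 13563881, 13798059 and 10984664 in LSD1-mKO replicates 1 to 3.

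As background, mitochondria hold their own small genome, and most of their proteins are made from nuclear genes under factors such as NRF1 and GABPA, which also act on genes for the copying and transcription of mitochondrial DNA. The mitochondrial network is shaped by fusion of the outer membrane, fusion of the inner membrane, and division by a dynamin that receptors bring to the surface. Slow-twitch muscle is dense in mitochondria, and endurance exercise is known for raising mitochondrial content.

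Levels below are CPM (counts scaled for library size and composition by TMM normalization), and fold changes are LSD1-mKO over WT. Kdm1a, which encodes LSD1, was at 40.5, 38.2 and 33.6 CPM in the WT mice and at 14.6, 16.6 and 16.6 CPM in the LSD1-mKO mice. Every LSD1-mKO library was far below every WT library, as the labels state. Kdm1a fell by 1.23 on the log2 scale (SE 0.11), with an adjusted p of 0.0160 in edgeR's quasi-likelihood test with Benjamini-Hochberg adjustment and of 7.81e-11 in DESeq2. With 1 mouse left out, the edgeR adjusted p missed the threshold in 4 of 6 cases, at 0.116 when WT replicate 2 was omitted and at 0.111, 0.143 and 0.209 when LSD1-mKO replicate 1, 2 or 3 was. The log2 fold change stayed between -1.30 and -1.17 in all 6 of these fits. The call was also lost in a fit with a block for replicate number, at -1.23 with an adjusted p of 0.299 in edgeR with Benjamini-Hochberg adjustment.

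The tissue label was compared with 9 lists of marker genes. All 11 skeletal muscle fiber markers, which include slow fiber genes and the type IIA myosin Myh2, were tested, and the sum of their levels ran from 100668 CPM in WT replicate 2 to 131108 CPM in WT replicate 1, with Acta1 the most abundant at a mean of 36146 CPM. The slow myosin Myh7 lay between 11233 and 15151 CPM and Myh2 between 14850 and 26503 CPM. The 8 fast glycolytic fiber markers summed to between 21861 and 31327 CPM, with Tnnt3 the most abundant at 8512 to 11670 CPM, Myh1 at 2353 to 6072 CPM and Myh4 at 15.0 to 40.6 CPM. RNA of slow and of fast fibers was thus present in every library, and no marker list had a gene at 0 in all 6 libraries. Markers of fibroblasts and of leukocytes differed widely between mice. The 8 fibroblast markers summed to 2259, 5019 and 6074 CPM in WT and to 4197, 2590 and 2731 CPM in LSD1-mKO, with Gsn the most abundant. The 8 macrophage and leukocyte markers summed to 101, 314 and 257 CPM in WT and to 199, 103 and 148 CPM in LSD1-mKO, with Lyz2 the most abundant. WT replicate 1 therefore stood apart from the other WT mice, with the lowest sum of both lists among the 6 libraries. All 8 genes of each list had a lower fitted level in LSD1-mKO, where 45.2% of all genes tested had a higher one. In edgeR 0 fibroblast and 2 leukocyte markers had an unadjusted p under 0.05, against 6.4% of all genes tested, and 0 of either list passed the adjusted threshold. The fast glycolytic fiber, endothelial and red blood cell lists each had 1 marker at an unadjusted p under 0.05. The sums overlapped between the groups for all 9 marker lists. In bulk tissue, fewer cells of a type and less RNA per cell cannot be told apart.

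Over the 10 members, 0 passed an adjusted p of 0.05 in edgeR, where 0.0156% of all genes tested did, and 0 passed in DESeq2, where 0.327% of all genes did. At an unadjusted p under 0.05 the count was also 0 in edgeR, DESeq2 and limma voom, and in edgeR 6.4% of all genes tested were called at that level. The fitted level was higher in LSD1-mKO for 9 of the 10 members, against 45.2% of all genes tested, with Tfam the exception. Polg and Fis1 turned lower when libraries were scaled by library size alone. The count of higher members ran from 7 to 10 with 1 mouse left out, and it was 10 with no filter. The median log2 fold change of the members was 0.096 and that of all genes tested was -0.020; the members' median was 0.038 without WT replicate 3, 0.056 without LSD1-mKO replicate 3 and 0.14 without WT replicate 1. The groups did not overlap for 2 members, Nrf1 and Gabpa, and 12.7% of all genes tested had groups that did not overlap in one or the other direction. Scaled by library size alone, 0 members had separate groups, against 11.8% of all genes tested.

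**Figure D1:**
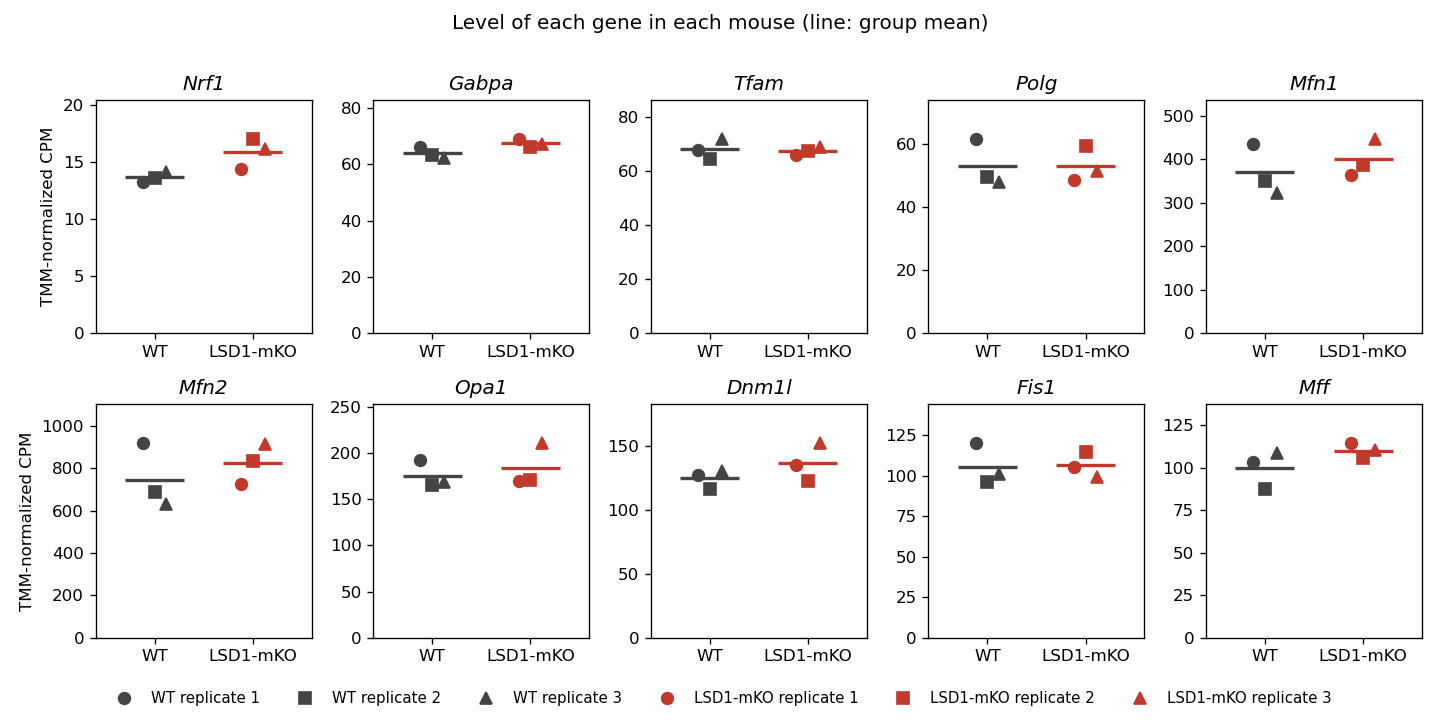
TMM-normalized CPM (vertical axes, from 0) of each of the 10 genes in the 3 WT mice (grey) and the 3 LSD1-mKO mice (red), with a symbol for each replicate number and a line at the group mean. Groups are separate only for Nrf1 and Gabpa, and WT replicate 1 lies above the other WT mice for Gabpa, Polg, Mfn1, Mfn2, Opa1 and Fis1.

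The members spanned a wide range of levels, compared here as TPM, which divides by transcript length. With the longest protein-coding transcript as the length, Mfn2 was highest, at a mean of 399 TPM (SD 51.2, n = 6 libraries), then Fis1 at 247 TPM (SD 13.5), Mfn1 at 186 TPM (SD 19.3) and Mff at 111 TPM (SD 8.80). Dnm1l at 72.9 TPM (SD 6.85) and Opa1 at 63.9 TPM (SD 5.70) were neighbours whose ranges over the 6 libraries overlapped. Tfam followed at 36.0 TPM, Gabpa at 29.2 TPM, Polg at 14.9 TPM and Nrf1 at 9.12 TPM. All other neighbours in this order had ranges that did not overlap. On this length, the fusion and fission genes all had more mRNA than the transcription factors, Tfam and Polg. The order depends on the length used: with all exons of a gene merged, Mff had 33.5 TPM and moved from rank 4 to rank 8, below Tfam and Gabpa, and Mfn1 (196 TPM) and Fis1 (193 TPM) changed places.

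Nrf1 encodes nuclear respiratory factor 1, a transcription factor of many nuclear genes for mitochondrial proteins (GRCm38 chromosome 6, positions 30047988 to 30153458, forward strand). Its level was 13.3, 13.6 and 14.1 CPM in the WT mice and 14.4, 17.0 and 16.1 CPM in the LSD1-mKO mice, from 110 to 235 estimated counts per library. The highest WT and the lowest LSD1-mKO mouse were close, and LSD1-mKO replicates 2 and 3 were above all other mice. The fitted level was 15.7% higher in LSD1-mKO (log2 fold change 0.21, SE 0.12; 95% interval -3.62% to 38.9%), with an unadjusted p of 0.103 and an adjusted p of 0.777 in edgeR with Benjamini-Hochberg adjustment. With all 6 mice this was the largest fold change among the members, and its interval included 0; without WT replicate 1 it was 0.19, below those of Mfn2 and Mfn1, and without LSD1-mKO replicate 2 it was 0.16, below those of Dnm1l (0.21) and Mff (0.18). The two-sided exact permutation test of the CPM gave p = 0.1, the smallest value that 3 mice against 3 allow. As TPM, which takes no TMM factor, the groups overlapped, with LSD1-mKO replicate 1 (8.78) below WT replicates 2 (9.02) and 3 (8.88).

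Gabpa encodes the DNA-binding subunit of GA-binding protein, also called nuclear respiratory factor 2, an ETS family factor (chromosome 16, positions 84834925 to 84863779, forward strand). It was at 66.1, 63.3 and 62.2 CPM in WT and at 69.0, 66.2 and 67.2 CPM in LSD1-mKO. The groups were separate by a narrow margin, between WT replicate 1 and LSD1-mKO replicate 2, and overlapped when WT replicate 2 was left out and the libraries were scaled again. As TPM they also overlapped, with LSD1-mKO replicates 2 (29.4) and 3 (29.9) below WT replicate 2 (30.2). The fitted level was 5.75% higher in LSD1-mKO (log2 fold change 0.08, SE 0.08; 95% interval -6.32% to 19.4%), with an adjusted p of 0.868 in edgeR with Benjamini-Hochberg adjustment and p = 0.1 in the exact permutation test. Its counts carry a limit, since 397 exon bases of Gabpa are shared with Atp5j on the opposite strand, its estimated counts were not whole numbers in 6 of 6 libraries, and whether the counting used strand was not given in the sources used here.

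Tfam encodes the protein that coats mitochondrial DNA and starts its transcription (chromosome 10, positions 71225464 to 71238280, reverse strand). It was at 67.8, 64.5 and 71.9 CPM in WT and at 65.8, 67.5 and 68.8 CPM in LSD1-mKO. All 3 LSD1-mKO values lay inside the WT range. The log2 fold change was -0.014 (SE 0.08), and the 95% interval from -12.8% to 12.6% bounds the difference that these libraries leave room for. The sign turned when WT replicate 3 (0.028) or LSD1-mKO replicate 1 (0.0043) was omitted.

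Polg encodes the catalytic subunit of the polymerase that copies mitochondrial DNA (chromosome 7, positions 79446231 to 79466362, reverse strand). It was at 61.6, 49.6 and 47.8 CPM in WT and at 48.6, 59.3 and 51.3 CPM in LSD1-mKO. WT replicate 1 and LSD1-mKO replicate 2 were high and the other 4 mice were close together, so that the groups overlapped throughout. The log2 fold change was 0.0046 (SE 0.12; 95% interval -17.7% to 22.2%). It was -0.076 without LSD1-mKO replicate 2, -0.040 without WT replicate 2, -0.065 without WT replicate 3 and 0.13 without WT replicate 1. Polg shares 921 exon bases with Fanci on the opposite strand, and its estimated counts were not whole in 6 of 6 libraries.

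Mfn2 and Mfn1 had the largest spread within WT among the members. Mfn1 and Mfn2 encode mitofusins, which join outer membranes (chromosome 3, positions 32529465 to 32579239, forward strand, and chromosome 4, positions 147873599 to 147904704, reverse strand). Mfn2 was at 919, 686 and 630 CPM in WT and at 727, 836 and 915 CPM in LSD1-mKO. In CPM its highest and its lowest library were both WT, replicates 1 and 3, and within WT they differed 1.46-fold; as TPM, which takes no TMM factor, LSD1-mKO replicate 3 (467) was above WT replicate 1 (433), and WT replicate 3 (327) was again the lowest. The log2 fold change was 0.15 (SE 0.16; 95% interval -13.8% to 42.6%), with an adjusted p of 0.884 in edgeR with Benjamini-Hochberg adjustment and p = 0.5 in the exact permutation test. Mfn1 was at 435, 351 and 323 CPM in WT and at 365, 387 and 447 CPM in LSD1-mKO. As for Mfn2 in CPM, WT replicate 1 and LSD1-mKO replicate 3 were the highest and WT replicates 2 and 3 the lowest. The Mfn1 log2 fold change was 0.11 (SE 0.13; 95% interval -12.6% to 33.6%), with an adjusted p of 0.892 in edgeR with Benjamini-Hochberg adjustment.

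Opa1 encodes the dynamin-related GTPase that fuses inner membranes and shapes cristae (chromosome 16, positions 29579334 to 29654884, forward strand). It was at 193, 166 and 169 CPM in WT and at 170, 171 and 211 CPM in LSD1-mKO. The same pair of mice was high in CPM, and the other 4 lay within a few CPM of each other. As TPM, LSD1-mKO replicate 3 (75.1) stood apart, and WT replicate 1 (63.3), which had the lowest TMM factor, was close to WT replicate 2 (63.5). The log2 fold change was 0.06 (SE 0.11, 95% interval -12.7% to 25.3%), and it was -0.046 without LSD1-mKO replicate 3 and 0.14 without WT replicate 1.

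WT replicate 1 set much of what Mfn1 and Mfn2 showed. Without it the log2 fold change was 0.33 for Mfn2 (SE 0.11; unadjusted p = 0.0209, adjusted p = 0.275 in edgeR with Benjamini-Hochberg adjustment) and 0.25 for Mfn1 (SE 0.11; unadjusted p = 0.0498, adjusted p = 0.346). In that fit 2 of 10 members had an unadjusted p under 0.05, against 14.4% of all genes tested, and 5 of 10 had groups that did not overlap, against 33.8% of all genes tested. Omitting LSD1-mKO replicate 3 lowered the values, to 0.07 for Mfn2 and 0.02 for Mfn1, as did omitting WT replicate 3, to 0.04 and 0.02. Markers of some other cell types moved with these values: the 6 libraries in order of summed fibroblast markers, from the lowest, were WT replicate 1, LSD1-mKO replicates 2, 3 and 1, and WT replicates 2 and 3, and the 3 libraries with the least were the 3 with the most Mfn2. The same 3 libraries had the lowest sums of the leukocyte markers and of the 8 endothelial markers, which were at 582, 824 and 699 CPM in WT and at 717, 592 and 598 CPM in LSD1-mKO, with Cdh5 the most abundant. They also had the lowest sums of the 4 satellite cell markers (45.6, 50.8 and 52.6 CPM in WT, 60.5, 49.4 and 43.1 CPM in LSD1-mKO). The skeletal muscle fiber sum did not follow Mfn2. It was highest in WT replicate 1 (131108 CPM), but LSD1-mKO replicates 2 (111405) and 3 (110276) lay below WT replicate 3 (115463) and LSD1-mKO replicate 1 (117953). Without WT replicate 1, the summed fibroblast markers of the remaining WT mice, 5019 and 6074 CPM, were above the highest LSD1-mKO value of 4197 CPM, the leukocyte sums of 314 and 257 CPM were above the highest of 199 CPM, and the endothelial sums overlapped. The sums of the adipocyte and Schwann cell markers did not follow Mfn2 in this way. Both sums were highest in LSD1-mKO replicate 2 (4152 and 176 CPM), which was among the 3 libraries with the most Mfn2. Most of the adipocyte sum was Car3 (mean 2842 CPM), so that it says little of the other genes of that list. Fabp4, the next most abundant, was lowest in the 3 libraries with the most Mfn2 (409 CPM in WT replicate 1, 374 and 377 CPM in LSD1-mKO replicates 2 and 3). Adipoq went the other way, with its highest level in LSD1-mKO replicate 2 (21.0 CPM). The part of any of these markers in the Mfn1 and Mfn2 values was not tested.

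**Figure D2:**
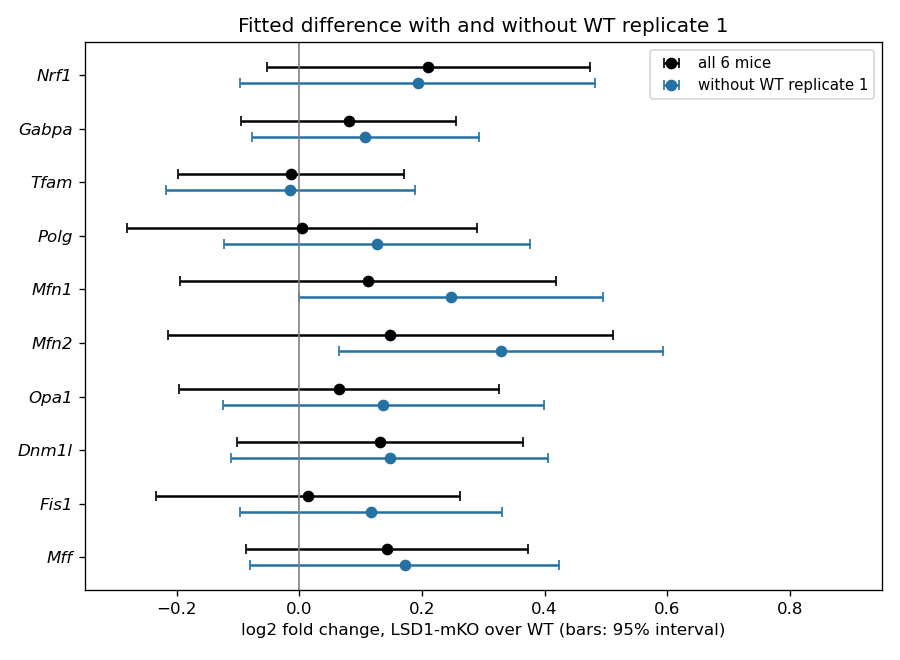
Log2 fold change of LSD1-mKO over WT (horizontal axis) for the 10 genes in edgeR, with all 6 mice (black) and without WT replicate 1 (blue); bars are 95% intervals. With all 6 mice every interval includes 0, and without WT replicate 1 those of Mfn2 (0.33) and Mfn1 (0.25) lie above 0.

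**Figure D3:**
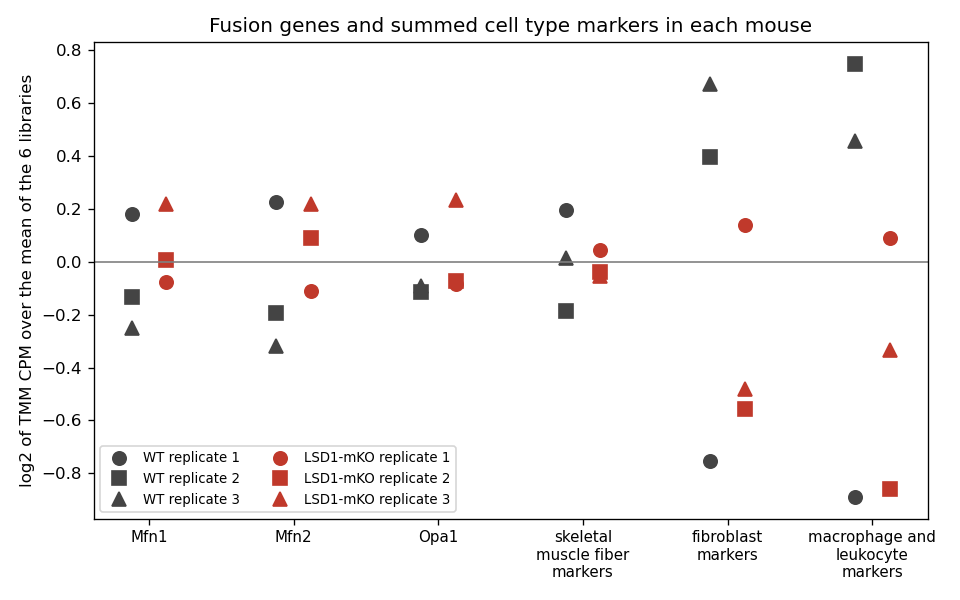
Log2 of the TMM-normalized CPM of Mfn1, Mfn2 and Opa1 and of the summed CPM of 3 marker lists, each over its mean in the 6 libraries (vertical axis), with WT in grey, LSD1-mKO in red and a symbol for each replicate number. WT replicate 1 is high for the fusion genes and lowest for the fibroblast (2259 CPM) and the macrophage and leukocyte markers (101 CPM).

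Dnm1l encodes DRP1, the dynamin that constricts mitochondria (chromosome 16, positions 16312230 to 16358959, reverse strand). It was at 127, 116 and 131 CPM in WT and at 135, 123 and 152 CPM in LSD1-mKO. LSD1-mKO replicate 3 was the highest, and LSD1-mKO replicate 2 lay inside the WT range. The fitted level was 9.57% higher in LSD1-mKO (log2 fold change 0.13, SE 0.10; 95% interval -6.76% to 28.8%), with an adjusted p of 0.832 in edgeR with Benjamini-Hochberg adjustment. That value was 0.05 without LSD1-mKO replicate 3, 0.09 without WT replicate 2 and 0.21 without LSD1-mKO replicate 2. Dnm1l shares 243 exon bases with an antisense transcript.

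Mff and Fis1 encode outer membrane proteins that serve as receptors for division (chromosome 1, positions 82724890 to 82752394, and chromosome 5, positions 136953275 to 136966234, both forward strand). Mff was at 103, 87.1 and 108 CPM in WT and at 114, 105 and 110 CPM in LSD1-mKO. WT replicate 2 was the lowest and the rest differed little, with WT replicate 3 above LSD1-mKO replicate 2. The fitted level of Mff was 10.4% higher in LSD1-mKO (log2 fold change 0.14, SE 0.10; 95% interval -5.80% to 29.4%), with an adjusted p of 0.809 in edgeR with Benjamini-Hochberg adjustment, and 195 of its exon bases are shared with a transcript on the opposite strand. Its log2 fold change was 0.06 when WT replicate 2 was omitted. Fis1 was at 120, 95.8 and 101 CPM in WT and at 106, 115 and 99.2 CPM in LSD1-mKO. In CPM WT replicate 1 was the highest, and all LSD1-mKO mice lay inside the WT range. As TPM, LSD1-mKO replicate 2 (268) was above WT replicate 1 (259), and LSD1-mKO replicate 3 (232) was the lowest. The log2 fold change of Fis1 was 0.014 (SE 0.11; 95% interval -15.0% to 19.9%), and it was below 0 without WT replicate 2 (-0.051), WT replicate 3 (-0.017) or LSD1-mKO replicate 2 (-0.036).

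The relative level of the mitofusins was compared within each library. The ratio of Mfn2 to Mfn1 TPM was 2.22, 2.06 and 2.05 in WT and 2.10, 2.27 and 2.15 in LSD1-mKO. Mfn2 exceeded Mfn1 per length in all 6 libraries, and the groups overlapped. The mean ratio in WT was 2.11 (SD 0.094, n = 3) and that in LSD1-mKO 2.17 (SD 0.089, n = 3), a difference of 0.04 on the log2 scale (two-sided exact permutation p = 0.5) that was 0.01 without LSD1-mKO replicate 2 and 0.08 without WT replicate 1. The summed TPM of Mfn1, Mfn2 and Opa1 over that of Dnm1l, Fis1 and Mff was 1.62, 1.52 and 1.27 in WT and 1.37, 1.50 and 1.75 in LSD1-mKO. Each group had a mouse near either end, so that this fusion to fission ratio differed less between groups than within them, with a WT mean of 1.47 (SD 0.181, n = 3) and an LSD1-mKO mean of 1.54 (SD 0.192, n = 3; difference 0.07 on the log2 scale; two-sided exact permutation p = 0.7). The difference was -0.034 without WT replicate 3 and -0.027 without LSD1-mKO replicate 3. The ratio itself depends on the length used, with means of 2.36 in WT and 2.49 in LSD1-mKO over merged exons and of 3.91 and 3.99 in CPM, where length is not divided out.

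Over the 6 libraries, the members whose log2 CPM varied most alike by Pearson r were Mfn1 and Mfn2, with a Pearson r of 0.981 and a Spearman rho of 0.943. Opa1 was closest to Mfn1 (r = 0.883), so that the fusion genes varied together between mice, and r between Mfn1 and Mfn2 was 0.979 after the group means were taken off. By Pearson r, Polg and Fis1 were each closest to the other (r = 0.876, rho = 0.543), with WT replicate 1 and LSD1-mKO replicate 2 high for both; by rank, Polg was closer to Mfn2 (rho = 0.886). By Pearson r, Dnm1l was closest to Opa1 (r = 0.736), Mff to Dnm1l (r = 0.725), Gabpa to Mfn1 (r = 0.598), Tfam to Mff (r = 0.524) and Nrf1 to Mff (r = 0.379). By rank, Dnm1l was closest to Mff (rho = 0.886), Gabpa to Mff (rho = 0.657) and Tfam to Dnm1l (rho = 0.543). With the group means taken off, r for Nrf1 and Mff was -0.202, the opposite sign. The median r over the 45 pairs was 0.353. These values describe 6 libraries that share 1 normalization and the differences in marker levels given above, and no test was made of them.

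The promoters of the members that varied together are given because GABPA and NRF1, themselves members, bind known letters. Windows from 250 bases before to 50 bases after the start were taken from RefSeq (GRCm38.p6) for all 10 members and searched on both strands for CCGGAAGT, an ETS site of the kind GABPA binds (in 3.89% of 32851 mouse promoters), GCATGCGC, a core of the NRF1 site (2.71%), AAGGTCA, letters that estrogen-related receptors bind (4.72%), and CACGTG, an E-box (7.15%). The ETS letters were found in windows of Tfam, Polg, Mfn1 and Fis1 and the NRF1 letters only in that of Opa1, where matches on both strands overlap; the other letters were in none. Letters that match are a description and do not show binding. In the sequences below, capitals mark the ETS letters in Mfn1 (chr3:32529232-32529531, forward strand), Polg (chr7:79466224-79466523, reverse strand) and Fis1 (chr5:136953025-136953324, forward strand) and the NRF1 letters in Opa1 (chr16:29579084-29579383, forward strand), and Mfn2 (chr4:147904649-147904948, reverse strand; the start of 3 listed that lies closest to the annotated gene) has neither.
Mfn1: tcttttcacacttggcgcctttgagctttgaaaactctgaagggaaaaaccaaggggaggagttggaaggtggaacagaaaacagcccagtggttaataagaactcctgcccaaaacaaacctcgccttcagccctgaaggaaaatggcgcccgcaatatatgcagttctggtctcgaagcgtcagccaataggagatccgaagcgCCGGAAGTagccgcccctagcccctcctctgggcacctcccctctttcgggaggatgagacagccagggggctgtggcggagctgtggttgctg
Mfn2: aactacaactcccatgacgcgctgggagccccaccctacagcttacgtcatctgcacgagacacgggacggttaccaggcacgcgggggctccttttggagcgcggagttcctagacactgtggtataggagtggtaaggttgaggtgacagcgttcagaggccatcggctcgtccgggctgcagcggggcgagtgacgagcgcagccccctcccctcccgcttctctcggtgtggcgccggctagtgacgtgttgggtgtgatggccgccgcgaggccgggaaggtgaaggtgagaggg
Opa1: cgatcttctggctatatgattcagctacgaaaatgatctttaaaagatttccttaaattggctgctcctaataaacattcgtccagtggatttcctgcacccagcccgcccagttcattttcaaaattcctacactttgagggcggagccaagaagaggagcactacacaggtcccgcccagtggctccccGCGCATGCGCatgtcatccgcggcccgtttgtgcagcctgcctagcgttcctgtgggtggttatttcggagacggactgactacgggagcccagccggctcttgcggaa
Polg: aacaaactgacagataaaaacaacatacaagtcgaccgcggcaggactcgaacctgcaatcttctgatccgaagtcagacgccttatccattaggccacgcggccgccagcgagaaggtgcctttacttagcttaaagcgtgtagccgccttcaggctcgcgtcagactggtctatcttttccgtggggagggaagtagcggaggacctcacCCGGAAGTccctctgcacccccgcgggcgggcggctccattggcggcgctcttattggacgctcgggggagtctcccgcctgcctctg
Fis1: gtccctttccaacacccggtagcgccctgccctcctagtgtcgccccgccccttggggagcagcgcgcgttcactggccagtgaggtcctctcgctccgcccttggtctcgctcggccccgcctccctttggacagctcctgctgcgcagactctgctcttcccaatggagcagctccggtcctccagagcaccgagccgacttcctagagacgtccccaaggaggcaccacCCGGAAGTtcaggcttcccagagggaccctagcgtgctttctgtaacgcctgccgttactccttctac
Mfn1 and Mfn2, which varied most alike between mice, thus differed in these letters, and Polg and Fis1 both had the ETS letters. Tfam and Mfn1 had the ETS letters as well. Pearson r with Tfam was -0.061 for Polg, 0.057 for Fis1 and -0.080 for Mfn1, and r with Mfn1 was 0.630 for Polg and 0.432 for Fis1. Members with the same letters therefore did not all vary alike.

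Other genes of the same processes were followed in 5 lists with 68 genes, of which 66 were tested. In edgeR 0 of the 66 passed the adjusted threshold, 5 had an unadjusted p under 0.05 with a higher and 2 with a lower fitted level in LSD1-mKO (6.4% of all genes tested were called at that level in either direction), and in DESeq2 1 passed the adjusted threshold. The fitted level was higher for 32 and lower for 34, and the median log2 fold change was -0.0039; with each mouse left out in turn, a step added for the lists after the data were seen, it was lowest when LSD1-mKO replicate 3 was omitted (-0.0076), highest when WT replicate 1 was omitted (0.080) and above 0 in 5 of 6 cases. Groups did not overlap for 14 of the 66, or 21.2%, against 12.7% of all genes tested. These lists were chosen with earlier results of these data known, so that their counts are not independent of those results.

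Among the 20 genes for mtDNA replication, transcription and the nucleoid, 7 had a higher and 13 a lower fitted level, with a median of -0.020 and 0 at an unadjusted p under 0.05 in edgeR. That median turned positive without LSD1-mKO replicate 1 (0.023), LSD1-mKO replicate 2 (0.021) or WT replicate 3 (0.0026). Mgme1, an exonuclease of mitochondrial DNA, had the highest log2 fold change of those at 5 CPM or more (10.1, 9.45 and 8.71 CPM in WT; 9.62, 13.3 and 11.7 CPM in LSD1-mKO; 0.30, SE 0.16), and the topoisomerase gene Top3a the lowest (-0.12, SE 0.15). Mgme1 was at 0.19 without LSD1-mKO replicate 2, and Top3a at -0.00072 without WT replicate 3. The groups overlapped for both genes.

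The 10 nuclear regulators of biogenesis divided into 5 higher and 5 lower, with 3 at an unadjusted p under 0.05 in edgeR, a level that 6.4% of all genes tested reached. The list was chosen with earlier results of these data known. It holds Esrrg, which the paper reported as upregulated in LSD1-mKO Sol after VWR, and Perm1, which the paper places downstream of Esrrg. The count is therefore not independent of those results. Esrrg, a nuclear receptor gene of oxidative metabolism, was at 147, 125 and 116 CPM in WT and at 267, 208 and 282 CPM in LSD1-mKO (log2 fold change 0.96, SE 0.14), higher in all 3 LSD1-mKO mice, with an adjusted p of 0.162 in edgeR with Benjamini-Hochberg adjustment and of 1.79e-06 in DESeq2. The coactivator gene Ppargc1a was at 79.7, 48.2 and 59.0 CPM in WT and at 143, 58.3 and 75.5 CPM in LSD1-mKO, groups that overlapped (log2 fold change 0.57, SE 0.32; adjusted p 0.777 in edgeR with Benjamini-Hochberg adjustment), and without LSD1-mKO replicate 1 the log2 fold change was 0.11. Pprc1, a coactivator gene related to Ppargc1a, had the lowest log2 fold change of the list: its levels were 21.9, 18.2 and 16.5 CPM in WT and 12.9, 14.2 and 16.4 CPM in LSD1-mKO. These groups were separate by a narrow margin (log2 fold change -0.38, SE 0.15; unadjusted p 0.0304 and adjusted p 0.729 in edgeR with Benjamini-Hochberg adjustment). The third was Perm1, named after its values were seen (0.51, SE 0.18).

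Of the 20 genes for fusion, inner-membrane proteolysis and cristae, 19 were tested, 12 with a higher and 7 with a lower fitted level and a median of 0.028, which was 0.090 without WT replicate 1, 0.0084 without LSD1-mKO replicate 3 and 0.0099 without WT replicate 3. Miga1, whose product promotes fusion at the outer membrane, was at 18.7, 17.1 and 19.5 CPM in WT and at 23.5, 20.4 and 24.2 CPM in LSD1-mKO. The lowest LSD1-mKO mouse exceeded the highest WT mouse (log2 fold change 0.30, SE 0.11; adjusted p 0.712 in edgeR with Benjamini-Hochberg adjustment). The prohibitin gene Phb2 had the lowest value (-0.13, SE 0.09), with groups that were also separate, and was at -0.07 without WT replicate 1.

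In the fission list 11 of 12 genes were tested, 3 with a higher and 8 with a lower fitted level. The list median was -0.031, and it turned positive without WT replicate 1 (0.059) or without LSD1-mKO replicate 1 (0.035). Mtfr1, a fission regulator gene, was at 66.5, 61.4 and 60.3 CPM in WT and at 65.7, 82.4 and 80.7 CPM in LSD1-mKO, where replicate 1 lay within the WT range (log2 fold change 0.28, SE 0.11; adjusted p 0.729 in edgeR with Benjamini-Hochberg adjustment). Inf2, a formin gene of the actin that forms at division sites, had the lowest value of those at 5 CPM or more, with 36.2, 30.8 and 31.1 CPM in WT and 29.3, 26.6 and 27.7 CPM in LSD1-mKO (-0.23, SE 0.10; adjusted p 0.766 in edgeR with Benjamini-Hochberg adjustment). Its groups did not overlap, and without WT replicate 1 the value was -0.15. Of the 6 transport genes 5 had a higher fitted level, with a median of 0.15; the motor adaptor gene Trak2 was highest (0.34, SE 0.15; 0.20 without LSD1-mKO replicate 3) and Rhot1, which encodes the anchor Miro1, lowest (-0.12, SE 0.08). The fifth gene with a higher level at an unadjusted p under 0.05 was Armcx3 of this list (0.23, SE 0.09), named after its values were seen.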

How the data were processed

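Poly(A) RNA of Sol from 3 WT and 3 LSD1-mKO mice after VWR was read by the authors as 75-base single-end reads; the submitters' processing notes name mm10, STAR and DESeq2, and the counting tool, its annotation and its use of strand were not given in the sources used here. The authors deposited estimated counts per gene, not normalized, of which between 8.33% and 9.94% per library were not whole. They also deposited a DESeq2 table of fold changes and p-values for the same comparison, which was not used. Of the 24411 symbols, 27 had been turned into dates and 2 were listed more than once.

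Estimated counts were rounded and fitted with edgeR 4.0.16 in R 4.3.3 (TMM, filterByExpr by group, quasi-likelihood test), with Benjamini-Hochberg adjustment over 12828 genes, a threshold of 0.05 and 95% intervals from the same fit. DESeq2 1.42.0, limma voom 3.58.1, other scalings and filters, a replicate block and each mouse left out in turn were alternatives. The fits were tested on simulated data. For TPM, the length of a gene's longest protein-coding transcript was read from GENCODE vM21, which gave lengths for 99.7% of the counts. Precision is limited by totals of 8940206 to 13798059 counts and 3 mice per group; an exact permutation test of 3 against 3 cannot go below 0.1. Genes named, apart from cell type markers and genes that share exon bases, are all members and Kdm1a, the highest and lowest fold change of each list at a mean of 5 CPM or more, list genes past the adjusted threshold in edgeR or DESeq2, Esrrg and Ppargc1a, and the most alike member of each member. Perm1 and Armcx3 fall outside this rule and were named after their values were seen. Cell type markers named are the most abundant of their list or myosin genes of the fiber lists, apart from Fabp4 and Adipoq, which were named after their values were seen. Members and lists were chosen with earlier results of these data known.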

Additional observations from a re-analysis of the deposited data

How the results depend on the processing

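Of 140 comparisons of a member's log2 fold change with an alternative, 128 kept direction and side of the threshold, 0 passed the threshold and 12 changed direction, 9 of them in fits that left out a mouse; Nrf1, Gabpa, Mfn1, Mfn2, Dnm1l and Mff kept their direction in all. Tfam was 0.0020 with no filter, and Polg -0.011 and Fis1 -0.0010 with library size alone. Leaving out each mouse gave -0.050 to 0.028 for Tfam (positive when WT replicate 3 or LSD1-mKO replicate 1 was omitted), -0.076 to 0.13 for Polg (below 0 without WT replicate 2 or 3 or LSD1-mKO replicate 2), -0.046 to 0.14 for Opa1 (below 0 without LSD1-mKO replicate 3), -0.051 to 0.12 for Fis1 (below 0 without the same mice as Polg) and -0.034 to 0.149 for the fusion to fission ratio (below 0 without WT replicate 3 or LSD1-mKO replicate 3); the Mfn2 to Mfn1 ratio ran from 0.011 to 0.080. Members at an unadjusted p under 0.05 in edgeR numbered 0 to 2 (2 without WT replicate 1, where 14.4% of all genes tested were called). Members whose groups did not overlap numbered 1 to 5 (5 without WT replicate 1, 4 without LSD1-mKO replicate 2, 1 without WT replicate 2) and 0 with library size alone. The shares of all genes tested whose groups did not overlap in these fits were, in the same order, 33.8%, 21.3%, 21.2% and 11.8%. The members' median ran from 0.038 to 0.14. In fits added after the data were seen, leaving out each mouse gave medians of -0.0076 to 0.080 for all listed pathway genes (below 0 only without LSD1-mKO replicate 3), -0.052 to 0.023 for mtDNA replication (positive when WT replicate 3 or LSD1-mKO replicate 1 or 2 was omitted), 0.012 to 0.121 for nuclear regulators (0.121 without WT replicate 3), 0.0084 to 0.090 for fusion (lowest when LSD1-mKO replicate 3, highest when WT replicate 1 was omitted) and -0.084 to 0.059 for fission (positive when replicate 1 of either group was omitted). Kdm1a ranged from -1.30 to -1.17; its edgeR call was lost without WT replicate 2 or any 1 LSD1-mKO mouse, in fits with fewer samples. With the replicate block Kdm1a was -1.23 (adjusted p 0.299 in edgeR with Benjamini-Hochberg adjustment); same-numbered libraries did not deviate together (correlations -0.352, -0.107 and -0.15; 0 of 6 closest to their own number), so no pairing of mice by number was assumed, and the block called 1 gene of all tested against 2 without it, and 0 members in either. Calls over all genes numbered 2 in edgeR, 42 in DESeq2, 3 in limma voom and 11 with no filter, with 0 members in each. The cause of these differences was not tested. With 3 mice per group, the 95% intervals of the members with all 6 mice reach from -17.7% (Polg) to 42.6% (Mfn2), so the data leave room for differences of those sizes.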
